A study of Mus musculus with 2 samples.

Results

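Genes that mark the tendon and cartilage lineages were followed in fibro/adipogenic progenitors (FAPs), the mesenchymal progenitors of skeletal muscle. The members are *Scx*, *Mkx*, *Tnmd*, *Comp*, *Thbs4*, *Kera*, *Cilp*, *Cilp2*, *Sox9* and *Acan*, and they are 10 of the 31053 genes in the count tables. They were chosen with results of these libraries already in view, so their counts and medians describe a chosen list. FAPs were sorted from limb muscle as live cells that lacked CD45, CD31 and Vcam1 and carried Sca1, and were profiled by droplet scRNA-Seq, a single library for each genotype. Control cells came from Bap1f/f (*Bap1* WT) and the others from Prx1-Cre;Bap1f/f (*Bap1* ΔMPC), littermates on a C57BL/6 background that were 3 weeks old. Both carry the floxed *Bap1* alleles, and only the second carries Cre. Prx1-Cre acts in limb mesenchyme, which gives rise to tendon and cartilage as well as to FAPs, and the number of animals behind each library is not given in the sources used here.

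Tendon joins muscle to bone through parallel collagen fibers, and its cells arise from mesenchymal progenitors under the transcription factors encoded by *Scx* and *Mkx*. Cartilage forms under *Sox9*, whose product activates genes of the cartilage matrix such as *Acan*, and progenitors that carry both *Scx* and *Sox9* build the junction of tendon and bone. The remaining members encode proteins of the membrane or the matrix. *Tnmd* encodes tenomodulin, a transmembrane glycoprotein of tendon cells, and *Kera* encodes keratocan, a small leucine-rich proteoglycan. *Comp* and *Thbs4* belong to the thrombospondin family, and *Cilp* and *Cilp2* encode related cartilage intermediate layer proteins.

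A total of 51015705 UMIs from 4103 cells, 12232 in the median cell, made up the library labelled *Bap1* WT. For the library labelled *Bap1* ΔMPC the total was 49540066 UMIs from 4378 cells, 11017.5 in the median cell. Both libraries held 5 of the same cell barcodes. Where values come in pairs, that of the library labelled *Bap1* WT stands first unless the sentence says otherwise. UMIs of a gene were summed over cells and divided by all UMIs of the same cells to give CPM. Intervals are exact 95% intervals, Poisson for CPM, conditional on the summed count for ratios and Clopper-Pearson for shares, and cover counting error only. With 1 library per genotype there is no replicate check, no p-value is given, and a difference between genotypes cannot be told apart from a difference between libraries.

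*Bap1* itself, which encodes a nuclear deubiquitinase, stood at 17.6 CPM (interval 16.5 to 18.8) on 897 UMIs for the library labelled *Bap1* WT, against 21.6 CPM (20.4 to 23.0) on 1072 UMIs for the library labelled *Bap1* ΔMPC. The *Bap1* level was thus not lower under the label *Bap1* ΔMPC. The method counts 3′ transcript ends, and the deletion takes out exons and shifts the reading frame, so these UMIs do not tell whether the floxed exons were present and are no check of the labels. Every direction given here is that of the libraries as labelled. *Pdgfra*, a receptor gene that marks FAPs, had a UMI in 93.9% and 84.1% of cells, and *Ly6a*, which encodes Sca1, in 96.5% of cells of each library. *Ptprc*, which encodes CD45, had no UMI in either. *Xist*, the RNA that coats the inactive X chromosome of female cells, stood at 791 and 702 CPM and had a UMI in 93.5% and 92.4% of cells. UMIs of *Uty*, *Kdm5d*, *Ddx3y* and *Eif2s3y*, genes of the Y chromosome, summed to 2 and 0. These are levels of female cells in both libraries, whereas the methods name only male mice for whole transcriptomic analysis, without saying whether these libraries are meant.

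Cells were also divided by a sum over *Pi16*, *Sema3c*, *Anxa3* and *Efemp1*, genes of the Dpp4+ FAPs, and were called Dpp4-type at 25 or more such UMIs per 10000. These were 1050 of 4103 cells (25.6%, interval 24.3 to 27.0) and 1251 of 4378 cells (28.6%, 27.2 to 29.9). The division is a range and not a natural border, with 210 and 337 cells between 20 and 30. Dpp4-type cells had a median of 1.11 and 1.38 UMIs per 10000 over 5 genes of the Cxcl14+ FAPs, against 22.8 and 19.4 in the other cells. Their median depth was 13635 and 11661 UMIs, against 11829 and 10733 in the other cells.

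The members spanned a wide range of levels. A transcript gives the same number of 3′ ends whatever its length, so CPM was compared between genes without dividing by length. In the library labelled *Bap1* WT, the order was *Cilp* at 595 CPM, *Thbs4* at 146, *Sox9* at 31.9, *Tnmd* at 23.2, *Comp* at 20.5, *Kera* at 10.3, *Cilp2* at 4.51, *Scx* at 0.921, *Mkx* at 0.392 and *Acan* at 0.0392. No neighbors in this order had overlapping intervals, though *Tnmd* (21.9 to 24.6) and *Comp* (19.3 to 21.8) nearly met. In the library labelled *Bap1* ΔMPC, the order was *Cilp* at 669 CPM, *Thbs4* at 330, *Comp* at 135, *Tnmd* at 60.4, *Sox9* at 59.2, *Kera* at 28.6, *Cilp2* at 18.1, *Scx* at 3.37, *Acan* at 1.23 and *Mkx* at 0.606. *Tnmd* (58.2 to 62.6) and *Sox9* (57.1 to 61.4) were the only neighbors with overlapping intervals there. *Comp* thus passed from the fifth to the third place among the members, and by UMIs over the whole table from rank 5737 of 19172 detected genes to rank 1148 of 19287.

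Each of the 10 members had a higher CPM over all cells in the library labelled *Bap1* ΔMPC, although the interval of the *Mkx* ratio included 1 and *Mkx* was lower once cells were thinned to 5000 UMIs. TMM scaling, which moves the log2 ratio of every gene by -0.10 over all cells, turned the direction of no member. With the fold of over 3 that the methods use, and without a test, 4 of the 10 were higher over all cells (*Scx*, *Comp*, *Cilp2* and *Acan*) and none was lower. Of the 8 members that passed the minimum level and UMIs for the table of all genes, which *Mkx* and *Acan* did not, 3 were higher by that fold (*Scx*, *Comp* and *Cilp2*), as were 1.45% of its 11761 genes. The median log2 ratio was 1.43 over the members and 0.10 over all genes.

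Among the regulators of tendon, *Scx*, a basic helix-loop-helix factor of tendon progenitors, had 47 and 167 UMIs, a ratio of 3.66 (interval 2.63 to 5.17). *Mkx*, a homeobox factor needed for tendon collagen, had 20 and 30 UMIs, a ratio of 1.54 (0.849 to 2.87). No difference in *Mkx* was detectable at this depth, and with each cell thinned to 5000 UMIs its log2 ratio turned to -0.72, on 11 and 7 UMIs. Whether these regulators differ from each other was not tested.

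Among the matrix and membrane genes of tendon, *Comp* differed most, with 1048 and 6701 UMIs and a ratio of 6.58 (interval 6.17 to 7.03). *Thbs4*, its relative in the thrombospondin family, had 7432 and 16370 UMIs and a ratio of 2.27 (2.21 to 2.33). *Tnmd* had 1186 and 2991 UMIs and a ratio of 2.60 (2.43 to 2.78). *Kera*, at 524 and 1415 UMIs, lay near these with a ratio of 2.78 (2.51 to 3.08). *Thbs4* had more UMIs than *Comp* in both libraries.

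Among the genes named for cartilage, *Cilp2* had 230 and 899 UMIs and a ratio of 4.03 (interval 3.48 to 4.67), whereas *Cilp*, with 30374 and 33164 UMIs, had a ratio of 1.12 (1.11 to 1.14). The log2 ratio of *Cilp*, 0.17, was close to the median of all genes. *Sox9* had 1625 and 2934 UMIs and a ratio of 1.86 (1.75 to 1.98). *Acan*, which encodes the large proteoglycan aggrecan, had 2 UMIs in 2 cells and 61 UMIs in 21 cells, a ratio of 31.4 whose interval ran from 8.33 to 265. In thinned cells it had 1 and 14 UMIs, and the log2 ratio went from 4.97 to 3.74.

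**Figure D1:**
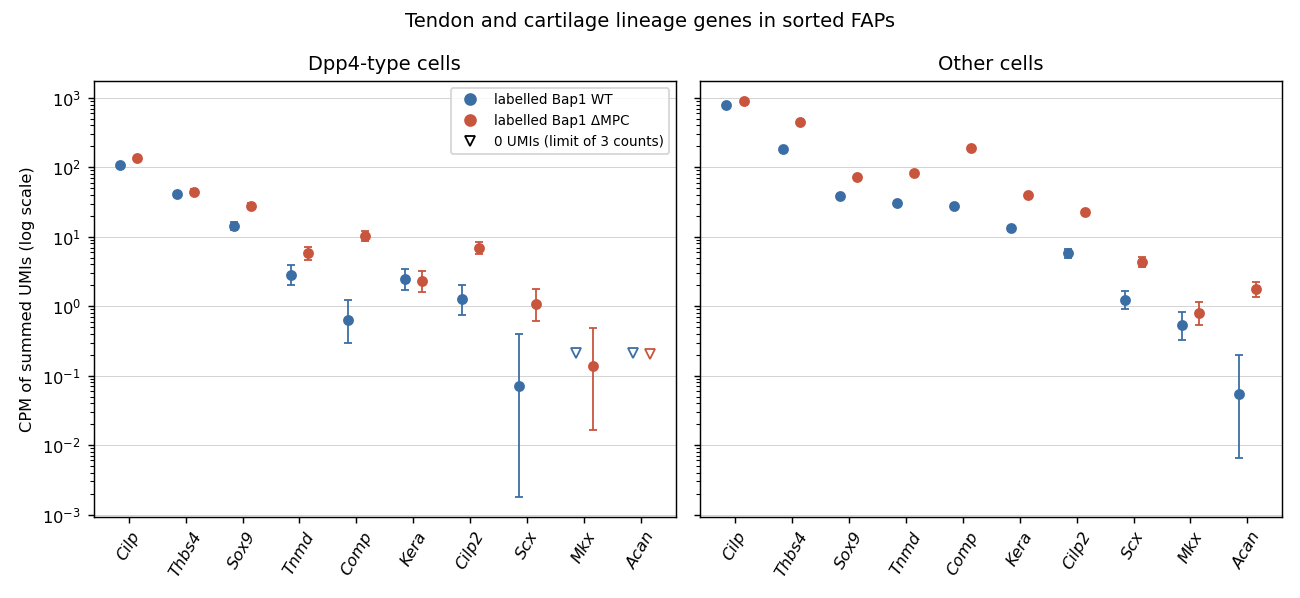
CPM of the 10 members (log axis) in Dpp4-type cells (left) and other cells (right), blue for the library labelled *Bap1* WT and red for the library labelled *Bap1* ΔMPC. Points are CPM of summed UMIs, bars are exact Poisson 95% intervals of counting error, and open triangles mark the limit of 3 counts where a gene had 0 UMIs; *Comp* in other cells stands at 28.2 and 188 CPM.

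A higher CPM can come with more cells that hold a UMI or with more UMIs in each, and the members differed in this. Shares were compared with each cell thinned to 5000 UMIs, which left out 120 and 210 shallower cells. *Comp* was found in 102 of 3983 thinned cells (2.56%) and 505 of 4168 (12.1%), or 3.70% and 15.9% unthinned. Its positive cells held 4.66 and 5.28 UMIs each after thinning, so the share of cells made up most of its difference.

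*Thbs4* showed the other form. It was found in 643 (16.1%) and 783 (18.8%) of the thinned cells, or 22.9% and 23.7% unthinned, while its positive cells held 4.14 and 8.09 UMIs. *Tnmd* lay between, with 4.80% and 6.45% of thinned cells (6.73% and 8.31% unthinned) and 2.32 and 4.24 UMIs per positive cell. *Kera* was like *Tnmd*, at 1.63% and 2.64% of thinned cells (2.78% and 3.84% unthinned) with 3.03 and 4.95 UMIs.

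For *Scx*, *Sox9* and *Cilp2*, positive cells held so few UMIs that a higher level shows mainly as more positive cells, so the forms cannot be told apart. *Scx* was in 0.351% and 1.32% of thinned cells (0.780% and 2.24% unthinned), with 1.29 and 1.27 UMIs per positive cell. *Sox9* was in 11.4% and 18.2% (19.1% and 29.0% unthinned), with 1.47 and 1.70 UMIs. *Cilp2* was in 1.26% and 4.05% (2.83% and 6.37% unthinned), with 1.68 and 2.21 UMIs. *Cilp* was the exception in direction, with fewer positive cells in the library labelled *Bap1* ΔMPC, 45.4% of thinned cells against 52.3% (52.9% against 61.0% unthinned), and more UMIs in each, 7.12 against 5.57. Its share goes against its CPM, and no order of the libraries is read from it.

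**Figure D2:**
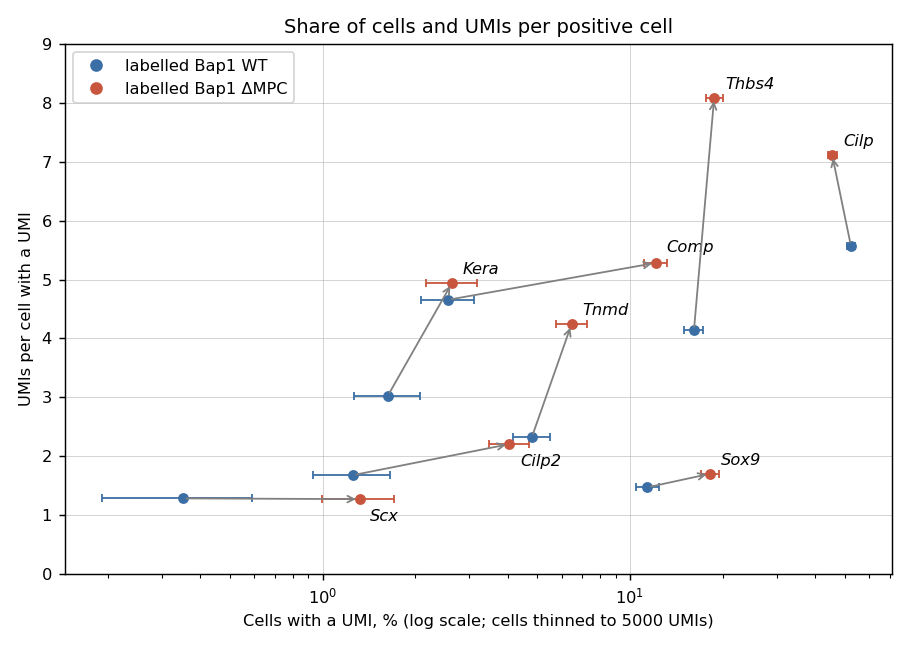
Share of cells with a UMI (horizontal, log axis, percent, exact binomial 95% intervals) against UMIs per positive cell (vertical) for 8 members, with cells thinned to 5000 UMIs. Arrows run from the library labelled *Bap1* WT (blue) to the library labelled *Bap1* ΔMPC (red); *Comp* moves from 2.56% to 12.1% of cells, and *Thbs4* from 4.14 to 8.09 UMIs per positive cell.

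UMIs were concentrated in few cells for some members. The 1% of cells with the most held 85.3% and 81.0% of *Kera* UMIs and 54.0% and 49.6% of *Tnmd* UMIs, against 13.0% and 15.7% of *Cilp* UMIs. For *Comp* the values were 76.6% and 40.9%. No cell type known to lack these genes is among sorted FAPs, so the share that free RNA gives was not measured. The nearest reference was a set of 233 cells with 3 or more UMIs of *Krt7* and *Plet1*, mostly Dpp4-type, in the library labelled *Bap1* ΔMPC. Median depths were 11956 UMIs in them and 10942 in the remaining cells, and shares are given in this order. For 5 members the share was lower in the reference, with intervals apart. These were *Tnmd* (1.72% and 8.69%), *Comp* (9.01%, interval 5.67 to 13.4, and 16.2%, 15.1 to 17.4), *Thbs4* (16.3% and 24.1%), *Cilp* (27.5% and 54.3%) and *Sox9* (20.6% and 29.5%). The intervals overlapped for *Kera* (1.29%, 0.266 to 3.72, and 3.98%, 3.41 to 4.62), *Scx* (1.29% and 2.29%), *Cilp2* (7.30% and 6.32%) and *Mkx* (0.858% and 0.458%), and for *Acan*, with 0 of 233 cells (interval up to 1.57, or 1.29% by 3 counts) and 0.507%. By this reference alone, expression and free RNA cannot be told apart for these 5.

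Every member with a ratio was lower in Dpp4-type cells than in the other cells of the same library. Of the 8 members in the tables of all genes, 7 were lower by over 3-fold in each library, all but *Sox9*, as were 5.37% of 11742 genes and 5.48% of 11754 genes. The *Scx* ratio under the label *Bap1* WT rests on 1 UMI in Dpp4-type cells. In thinned cells the numbers were 5 and 7, since *Scx* and *Cilp2* (log2 -1.51) were not counted under that label. *Scx* had 0 and 18 UMIs in Dpp4-type and other cells there. Its bound, with 3 counts in place of 0, does not tell whether it passed 3-fold. With the limit of the class at 15 the numbers were 7 and 5. They were 7 and 6 with the limit at 40, without *Efemp1* in the sum or without *Chad* cells. The median log2 ratio of Dpp4-type over other cells was -2.65 and -3.03 over these 8 members, -2.24 and -2.16 with the limit at 15, and -0.01 and -0.04 over all genes. *Comp* was among the lowest, with 0.638 CPM in Dpp4-type and 28.2 CPM in other cells (log2 -5.46, interval -6.60 to -4.53), and with 10.2 and 188 CPM (log2 -4.21, -4.46 to -3.98), where its interval overlapped that of *Kera* (log2 -4.11). The order of the members changed with the limit of the class. At 15, the log2 ratio of *Comp* was -3.15 and -2.52, with *Scx* (-4.63) and *Tnmd* (-3.31) lower under the label *Bap1* WT and *Acan* (-5.21) lower under the label *Bap1* ΔMPC. At 40, the log2 ratio of *Comp* was -5.34 and -4.28, and *Kera* (-4.91) was lower under the label *Bap1* ΔMPC.

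*Sox9* was among the more evenly spread members, at 14.4 CPM in Dpp4-type and 38.5 CPM in other cells (log2 -1.42) for the library labelled *Bap1* WT, and at 27.6 and 72.7 CPM (log2 -1.40) for the library labelled *Bap1* ΔMPC, with intervals that overlapped those of *Cilp2* (log2 -2.17 and -1.75). Dpp4-type cells held 12.5% and 13.9% of its UMIs, against 3.37% and 2.88% of *Tnmd* UMIs. *Mkx* had 0 UMIs in Dpp4-type cells and 20 in other cells of the library labelled *Bap1* WT, a log2 ratio of at most -1.35 with 3 counts in place of 0. *Acan* had 0 UMIs in Dpp4-type cells of either library, and against its 61 UMIs elsewhere in the library labelled *Bap1* ΔMPC the log2 ratio was at most -3.11.

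Between the libraries, the other cells gave nearly the ratios of all cells, since they held most of the UMIs. There, 4 members were higher by over 3-fold, the same genes as over all cells. Without *Acan*, they were 3 of the 8 members in the table of all genes, against 1.90% of 11757 genes. *Comp* had 28.2 and 188 CPM (ratio 6.69, interval 6.27 to 7.15), and *Kera*, with 13.3 and 39.7 CPM, stood at the limit with an interval of 2.70 to 3.33. The median log2 ratio in other cells was 1.51 over the members and 0.11 over all genes, and TMM scaling moves both by -0.11.

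In Dpp4-type cells, 3 members were higher by over 3-fold (*Scx*, *Comp* and *Cilp2*). A ratio could be had for 8 members, and 7 of them, without *Scx*, were in the table of all genes, where 2 of the 7 and 1.47% of 11599 genes passed. *Comp* had 9 UMIs in 7 cells and 150 UMIs in 62 cells (ratio 15.9, interval 8.17 to 35.5), and its log2 ratio of 3.99 fell to 3.16 in thinned cells and 3.35 with the limit at 15. *Cilp2* had 18 and 101 UMIs (ratio 5.36, 3.23 to 9.41), and *Scx* had 1 and 16 UMIs (ratio 15.3, 2.38 to 641). Under the label *Bap1* ΔMPC, the cell with the most UMIs held 24 of the 150 for *Comp* and 24 of the 101 for *Cilp2*. For both genes that cell had a Dpp4-type sum of 44.0, and the remaining cells held 126 and 77 UMIs. With thinned cells, *Scx* was at 0 and 8 UMIs and its log2 ratio was at least 1.17. That bound, from 3 counts in place of 0, does not tell whether *Scx* passed 3-fold. A UMI was found in 0.667% and 4.96% of Dpp4-type cells for *Comp*, in 1.62% and 5.36% for *Cilp2* and in 0.0952% and 0.879% for *Scx*. The shares under the label *Bap1* ΔMPC were no higher than in the *Krt7* and *Plet1* reference (9.01%, 7.30% and 1.29%). Of its 233 cells, 184 are themselves Dpp4-type, so it gives no separate level of free RNA to set beside these shares. Expression and free RNA cannot be told apart for these values.

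*Thbs4* did not share that pattern, and the value of *Kera* changed with the setting. *Thbs4* was at 41.0 and 44.8 CPM in Dpp4-type cells (ratio 1.09, interval 0.976 to 1.22, with a log2 ratio of -0.03 in thinned cells), against 186 and 452 CPM in the other cells (ratio 2.43, 2.36 to 2.50). *Kera* had 35 and 34 UMIs in Dpp4-type cells (ratio 0.929, 0.562 to 1.53), but 28 of the 35 lay in 1 cell whose Dpp4-type sum of 27.1 was close to the limit. The log2 ratio of *Kera* was 1.70 with the limit at 15, 1.67 with the limit at 40, 2.38 without *Efemp1* in the sum, 0.06 with cells weighted equally and -0.56 in thinned cells, so no direction is read from it. *Sox9* had almost the same ratio in Dpp4-type cells (1.92, 1.62 to 2.28) as in other cells (1.89, 1.77 to 2.01). The differences between the 2 kinds of cells were not tested.

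Most members were found together in the same cells more often than their separate shares would give, while *Sox9* with *Thbs4*, *Cilp* or *Tnmd* came close to those shares. The measure is the number of cells with both genes over the number that the product of the shares gives, in thinned cells, and unequal depth within a library was limited by thinning. It pools Dpp4-type and other cells unless a class is named, and members that are low in the same class raise it. *Tnmd* and *Cilp2* were together in 19 cells (7.92 times the product) and 70 cells (6.42 times). *Tnmd* and *Kera* were together in 16 cells (5.13 times) and 39 cells (5.49 times). *Tnmd* and *Comp* were together in 19 cells (3.88 times) and 146 cells (4.48 times). Within other cells alone the measure was lower for each of these pairs. It was 7.14 and 5.82 times for *Tnmd* and *Cilp2*, 4.37 and 4.56 times for *Tnmd* and *Kera*, and 3.26 and 3.51 times for *Tnmd* and *Comp*. The measure changed with depth, and no order of the libraries is read from it. For *Tnmd* and *Kera* it was 8.91 and 5.82 times with cells thinned to 3000 UMIs and 4.30 and 3.58 times unthinned, and for *Tnmd* and *Cilp2* it was 8.98 and 8.41 times and 4.23 and 4.74 times.

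The number of cells with both genes differed more between the libraries than the measure did for each of these 3 pairs. Of the *Tnmd* cells, 9.95% had a *Comp* UMI under the label *Bap1* WT and 54.3% under *Bap1* ΔMPC. *Comp* and *Thbs4* were together in 40 cells (2.43 times) and 249 cells (2.62 times), and *Thbs4* and *Cilp*, the most abundant members, in 526 cells (1.56 times) and 615 cells (1.73 times). Within other cells alone, these pairs stood at 2.18 and 2.15 times and at 1.36 and 1.45 times. *Kera* and *Cilp* stood at 1.29 and 1.24 times over all cells but at 1.09 and 1.04 times within other cells. *Scx* and *Tnmd*, regulator and marker of the tendon lineage, were together in 6 cells (8.94 times) and 26 cells (7.32 times).

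*Sox9* was found with *Thbs4* in 74 and 148 cells, at 1.01 and 1.04 times the product, and with *Tnmd* in 23 and 58 cells, at 1.06 and 1.18 times. Within other cells alone, *Sox9* stood at 0.931 and 0.943 times with *Thbs4* and at 0.978 and 1.07 times with *Tnmd*. With *Scx* it reached 3.13 and 1.40 times, on 5 and 14 cells. *Acan* was too rare for thinned counts. Without thinning, 17 of the 21 *Acan* cells that the library labelled *Bap1* ΔMPC held had a *Comp* UMI (5.11 times the product), 16 a *Tnmd* UMI (9.16 times), 15 a *Sox9* UMI (2.46 times), 13 a *Cilp2* UMI (9.71 times), 13 a *Thbs4* UMI (2.61 times), 11 a *Kera* UMI (13.7 times), 5 a *Scx* UMI (10.6 times) and 5 a *Mkx* UMI (49.6 times). *Cilp*, in 10 of them, stood at 0.900 times the product.

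**Figure D3:**
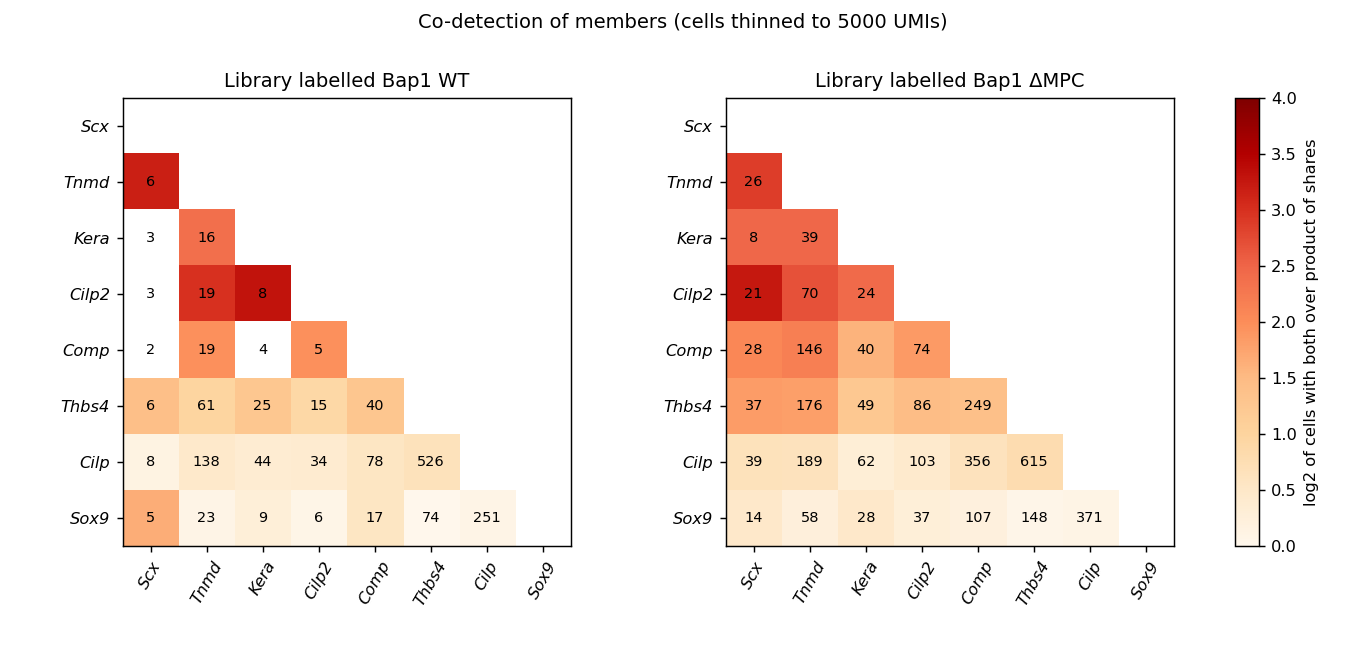
Cells with a UMI of both members of a pair, for 8 members in each library, with cells thinned to 5000 UMIs. Numbers are cells with both genes, and color is the log2 of that number over the product of the shares (no color under 5 cells); *Tnmd* and *Comp* share 19 cells for the library labelled *Bap1* WT against 146 for the library labelled *Bap1* ΔMPC, and *Sox9* with *Thbs4* stands at 1.01 and 1.04 times the product.

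Counted over the 10 members, 188 of 3983 thinned cells (4.72%) had 3 or more of them in the library labelled *Bap1* WT, and 479 of 4168 (11.5%) in the library labelled *Bap1* ΔMPC. The number with 5 or more was 12 and 82. Unthinned, 9.99% and 17.5% of cells had 3 or more. The share of thinned cells with no member at all was nearly the same, at 38.3% and 38.2%.

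*Chad*, which encodes chondroadherin, a leucine-rich repeat protein of cartilage and tendon, marks cells in which most tendon members were high. It had 87 and 1030 UMIs, in 28 cells (0.682%) and 116 cells (2.65%), and the cell with the most held 245 of the 1030. In the library labelled *Bap1* WT, *Tnmd* stood at 383 CPM in *Chad* cells and 20.8 CPM in the others. In the library labelled *Bap1* ΔMPC, it stood at 648 and 43.1 CPM.

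*Comp* was at 210 CPM in *Chad* cells against 19.2 CPM in the others of the library labelled *Bap1* WT, and at 1461 against 96.4 CPM for the library labelled *Bap1* ΔMPC. *Sox9* had only 11 UMIs in *Chad* cells under the label *Bap1* WT, at 31.7 CPM (interval 15.8 to 56.6) against 31.9 CPM. The interval of that ratio, 0.495 to 1.78, leaves both a higher and a lower level possible. Under the label *Bap1* ΔMPC, *Sox9* stood at 89.2 against 58.3 CPM. No contrast between the libraries is read from these *Sox9* values. *Ly6a*, the gene of the sort marker, was lower in *Chad* cells, at 863 against 1645 CPM and 1154 against 2027 CPM. Whether the sort on Sca1 bears on the number of such cells was not tested.

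Apart from *Acan* (55.7%), *Chad* cells held under 50% of each member's UMIs in the library labelled *Bap1* ΔMPC. They held 30.8% of *Comp*, 30.6% of *Tnmd*, 32.5% of *Cilp2* and 16.8% of *Thbs4* UMIs. Without them, the ratio between the libraries was 5.01 for *Comp* (interval 4.67 to 5.37), 3.44 for *Scx* (2.36 to 5.12), 28.4 for *Acan* (4.69 to 1164), 2.08 for *Tnmd* (1.93 to 2.24) and 1.83 for *Sox9* (1.72 to 1.95). *Cilp2* fell to the limit, at 2.99 (2.55 to 3.51), and *Mkx* went from 1.54 to 1.05 (0.505 to 2.19). *Comp*, *Scx* and *Acan* were thus still higher by over 3-fold in cells without a *Chad* UMI.

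Members were also high in another set of FAPs, those with 3 or more UMIs of *Hmcn1*, *Meox1* and *Etv4*, which were 735 cells (17.9%) and 278 cells (6.35%). In the library labelled *Bap1* WT these cells held 51.0% of *Comp* and 36.6% of *Tnmd* UMIs, at 57.9 CPM of *Comp* against 12.3 CPM in the other cells. In the library labelled *Bap1* ΔMPC they held 14.9% of *Comp* UMIs, at 293 against 124 CPM. Both inside and outside that set, *Comp* was therefore higher under the label *Bap1* ΔMPC.

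Other sets, also taken at 3 or more UMIs, differed in which members were high. Cells with *Lgr5*, *Pappa2* and *Kdr* UMIs, 140 (3.41%) and 48 (1.10%), had *Tnmd* at 102 against 19.7 CPM and 134 against 59.4 CPM, and *Kera* at 53.5 against 8.30 CPM and 106 against 27.5 CPM. *Sox9* was lower in that set, at 0.260 and 0.465 times its level outside. In cells with *Spon1*, *Cldn2*, *Hsd11b2* and *Angpt4* UMIs, 241 (5.87%) and 1056 (24.1%), the libraries differed in direction. *Thbs4* stood at 302 CPM inside and 135 CPM outside that set for the library labelled *Bap1* WT, but at 230 CPM inside and 365 CPM outside for the library labelled *Bap1* ΔMPC. *Tnmd* and *Kera* turned in the same way, and *Comp* was lower inside in both, at 5.64 against 21.6 CPM and 80.3 against 154 CPM.

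The genes most like each member were sought by Pearson correlation across the cells of each library, over 11981 genes, as a description without a test. Cells of a library share their source and differ in depth. Genes with r over 0.1 in both libraries were ordered by the mean of their r values, so the order within a single library can differ. By that mean, *Thbs4* came nearest to *Col8a1*, a short-chain collagen gene (r = 0.53 and 0.49), and then *Cilp* (0.46 and 0.48). *Tnmd* came nearest to *Col11a1*, a fibrillar collagen gene (0.44 and 0.45), *Cilp* to *Mfap4*, a gene of elastic microfibrils (0.46 and 0.55), and *Cilp2* to *Fmod*, which encodes the tendon proteoglycan fibromodulin (0.24 and 0.55). *Comp* came nearest to *Fxyd6* (0.22 and 0.41), although under the label *Bap1* ΔMPC alone its r with *Tnmd* was 0.48, against 0.09 under *Bap1* WT. For *Sox9*, the first gene was *Col15a1*, at 0.14 and 0.19, too weak in sparse counts to set it beside any gene.

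Further genes of these lineages were read by list, over all cells unless a class is named. Of 20 further tendon matrix genes, 1 was higher by over 3-fold (*Chad*), none was lower, and the median log2 ratio was -0.14. In Dpp4-type cells 2 were higher by that fold, with a median of 0.08, and in other cells 2, with a median of -0.16. Of all genes, 1.45% were higher by that fold over all cells, 1.47% in Dpp4-type cells and 1.90% in other cells. Over all cells, the main fibrillar collagens were lower under the label *Bap1* ΔMPC, also under TMM scaling. *Col1a1* went from 21267 to 9859 CPM (log2 -1.11) and *Col1a2* from 20780 to 9386 CPM (log2 -1.15). *Lox*, which encodes an enzyme that cross-links collagen, had a log2 ratio of -1.10. *Tnc*, the gene of the matrix glycoprotein tenascin-C, and *Angptl7* were higher, at 1.51 and 1.47.

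Of 22 further regulators of tendon, 17 passed the minimum level and UMIs, none passed 3-fold, and the median was 0.13. *Bmp4* (-1.29) and *Etv4* (-1.15) were lowest, and *Egr2* (0.73), an early growth response factor, was highest. Of 15 further cartilage regulators, 7 passed these minimums, all 7 were higher over all cells, though *Arid5b*, at 0.10, stood at the median of all genes, none passed 3-fold, and the median was 0.45. In Dpp4-type cells 6 of the 7 were higher, with a median of 0.18, and in other cells all 7, with a median of 0.54. *Sox5*, which encodes a partner of Sox9 in chondrogenesis, had 17.1 and 38.0 CPM (log2 1.16).

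Genes of the cartilage matrix were low. Of 16 further such genes, only *Matn4* (12.6 and 12.5 CPM) passed the minimum level, and *Matn1* and *Ucma* had no UMI. Under that level, *Epyc* had 105 and 93 UMIs (ratio 0.912, interval 0.682 to 1.22) and *Col11a2* 35 and 80 UMIs (ratio 2.35, 1.56 to 3.61). *Col2a1*, the main collagen of cartilage, had 5 and 20 UMIs, or 0.0980 and 0.404 CPM, far under *Sox9*. Of 16 relatives of the members by family, 12 passed the minimums, none passed 3-fold, and the median was -0.21. Among thrombospondins, *Thbs1* had a log2 ratio of 0.28, *Thbs2* -0.25 and *Thbs3* 0.05, the last turning lower under TMM scaling, so none of these 3 had a difference near that of *Comp*.

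Markers of other cell types were read beside these values. Of 5 Schwann cell markers, which summed to 21.2 and 67.3 CPM, none was at 0 over both libraries, and 1 was higher by over 3-fold. That was *S100b*, the most abundant, at 16.8 and 63.7 CPM, a gene that chondrocytes also use, while *Sox10* had 9 and 0 UMIs. The 5 adipocyte markers summed to 0.216 and 6.06 CPM, with *Plin1* the most abundant and none at 0. The 6 osteoblast markers summed to 7.64 and 6.58 CPM, with *Alpl* the most abundant and *Ibsp* at 0. The part of these cell types in the members' values was not tested.

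The remaining marker lists were as follows. The 5 endothelial markers summed to 85.1 and 115 CPM, led by *Tek*, and the 6 mural markers to 68.0 and 58.3 CPM, led by *Cspg4*. The 6 immune markers summed to 5.78 and 7.21 CPM, led by *Cd68*, with *Ptprc*, *Cd3e* and *Itgam* at 0. The 5 muscle stem cell markers summed to 37.6 and 20.5 CPM, led by *Vcam1*, with *Pax7*, *Myf5* and *Myod1* at 0, and the 6 myofiber markers to 60.7 and 35.9 CPM, led by *Mylpf*. The 5 FAP markers summed to 18190 and 16263 CPM, led by *Dcn*.

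By position on mm10, 2 of the members that differed by over 3-fold lie on chromosome 8, *Cilp2* at chr8:69880369-69887687 on the minus strand and *Comp* at chr8:70373558-70382066 on the plus strand. *Scx* is at chr15:76457452-76459458 on the plus strand and *Acan* at chr7:79053483-79115099 on the plus strand. Each is annotated as a protein-coding gene.

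Scx binds the E-box, CANNTG, as basic helix-loop-helix factors do, so the 250 bases before the RefSeq gene start (GRCm38.p6) were searched for it in the promoter table, which held 6 of the 10. That start differs from the one in the annotation used for positions for *Tnmd*, *Kera*, *Cilp2* and *Acan*, and the windows of *Tnmd*, *Kera* and *Cilp2* overlap an exon of that annotation. It was found in 4 of these 6, *Cilp* (3 sites), *Thbs4*, *Cilp2* and *Acan* (1 each), and in 66.2% of 32851 promoters. CANNTG is its own reverse complement. AACAAT, a core bound by Sox factors that was searched on both strands, was found in *Kera* (2 sites) and *Cilp2* (1 site) and in 9.42% of promoters. The 3 windows that touch no annotated exon are given 5′ to 3′ on the gene's strand, with E-boxes in capitals, to show the sites of a weakly differing gene (*Cilp*), a gene of the thrombospondin family (*Thbs4*) and a rare member (*Acan*). For *Thbs4*, *Cilp* and *Acan*, in this order, they are chr13:92794819-92795068 on the minus strand, chr9:65264930-65265179 on the plus strand and chr7:79052976-79053225 on the plus strand. A match is a description of the letters and not a measured site.
Thbs4: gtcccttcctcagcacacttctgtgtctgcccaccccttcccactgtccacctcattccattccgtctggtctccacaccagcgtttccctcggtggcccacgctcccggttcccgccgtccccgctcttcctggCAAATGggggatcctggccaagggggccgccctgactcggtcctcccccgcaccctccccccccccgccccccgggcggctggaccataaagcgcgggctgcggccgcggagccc
Cilp: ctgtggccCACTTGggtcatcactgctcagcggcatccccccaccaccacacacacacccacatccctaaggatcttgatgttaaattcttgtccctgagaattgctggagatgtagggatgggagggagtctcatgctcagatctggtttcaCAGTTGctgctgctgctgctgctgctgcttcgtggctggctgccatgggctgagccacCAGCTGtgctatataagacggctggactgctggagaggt
Acan: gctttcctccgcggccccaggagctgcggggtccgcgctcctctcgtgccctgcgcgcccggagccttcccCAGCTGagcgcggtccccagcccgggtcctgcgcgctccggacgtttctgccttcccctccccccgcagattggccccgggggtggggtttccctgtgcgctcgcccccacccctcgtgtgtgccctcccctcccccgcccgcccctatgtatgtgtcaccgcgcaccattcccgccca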

How the data were processed

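The authors aligned the reads with Cell Ranger 3.1.0 to mm10, filtered cells for quality, gated doublets and removed non-FAPs in Seurat 3.2.1 (R 3.6.1), and what they deposited is a table of unnormalized UMI counts for every library. Their filter thresholds are not given in the sources used here. No further cell was removed and no doublet caller was run. Detected genes per cell ran from 1501 to 4998.

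UMIs were summed per library and cell class. Genes entered a comparison when their mean normalized level passed 0.01 and both groups together had at least 20 UMIs, and members were given regardless. For bounds, 3 counts over the group stood in for 0. Differences were called by a fold over 3 without a test. The calculation of ratios and intervals was run on simulated Poisson sums. These leave out the concentration of UMIs in few cells, so the run checks the arithmetic only. Named genes were drawn from the members, *Bap1*, the 3 largest ratios of each direction and the most abundant gene in each list (100 or more UMIs), and the genes most correlated with each member. Not every gene that this rule gives is printed. *Chad* cells had 1 or more UMIs, and other sets 3 or more. *Xist*, the Y-linked genes, *Col2a1*, *Thbs2*, *Thbs3* and the single marker genes were named after their values were seen. The members and lists were chosen with earlier results of these data known. Positions came from GENCODE M21. Alternatives changed the Dpp4-type limit and genes, scaling (TMM, edgeR 4.0.16), UMI minimum, fold, weighting, depth and cells. Python 3.11.15, numpy 2.4.6, scipy 1.17.1 and R 4.3.3 were used.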

Additional observations from a re-analysis of the deposited data

How the results depend on the processing

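No paired analysis was possible because neither genotype has more than 1 library. The number of members that differed between the libraries by over 3-fold stayed within 1.5 times the reported one except in 3 cases. It was 5 in Dpp4-type cells at a limit of 15 in place of 25, where *Tnmd* and *Kera* passed, and 7 over all cells and 7 in other cells with a fold over 2. At the limit of 15, the number of all genes over 3-fold in Dpp4-type cells, in either direction, moved by 6 from 312. By a fold over 2, 3.45% of 11761 genes were higher over all cells and 4.12% of 11757 genes in other cells. No member called by 3-fold changed direction. Members lower in Dpp4-type cells by over 3-fold, 7 of 8 in each library, were 5 at a limit of 15 and 6 at 40, without *Efemp1* or without *Chad* cells under the label *Bap1* ΔMPC. Under the label *Bap1* WT they were 5 in thinned cells. *Cilp2* fell under 3-fold there, and *Scx*, with 0 UMIs in Dpp4-type cells, had only a bound that does not decide it. Shares of all genes lower in Dpp4-type cells are given for the main setting only, so these counts describe the members alone. Of members not called, *Mkx* over all and other cells turned lower with thinned cells (log2 -0.72 and -0.87), *Thbs4* in Dpp4-type cells moved to -0.01 with cells weighted equally, -0.03 with thinned cells and -0.03 without *Chad* cells, and *Kera* in Dpp4-type cells changed sign in 4 settings, from -0.11 up to 2.38. Of Dpp4-type over other cells, *Kera* under the label *Bap1* WT went from -2.42 to -5.15 at a limit of 40, and *Comp* from -5.46 and -4.21 to -3.15 and -2.52 at 15. Between the libraries, *Comp* in Dpp4-type cells went from 3.99 to 3.16 in thinned cells and 3.35 at a limit of 15, and *Acan* over all cells from 4.97 to 3.74 in thinned cells. For *Scx* in Dpp4-type cells, 3.93 became a bound of at least 1.95 at a limit of 40. Its 1 UMI there under the label *Bap1* WT lay in a cell with a Dpp4-type sum of 26.7. The cause of these changes was not tested. TMM scaling shifted every gene by -0.10 over all cells, -0.07 in Dpp4-type and -0.11 in other cells and changed no direction of a member. Leaving out the 1% of cells with the most UMIs (42 and 44 cells) moved no member's ratio, between libraries or classes, out of its interval. Genes over 3-fold among all genes numbered 301, 312 and 361 over all, Dpp4-type and other cells, 780, 819 and 875 with a fold over 2, 1348, 946 and 1449 with no minimum of UMIs, and 163 in Dpp4-type cells with a minimum of 100. Low counts limit the values of *Scx*, *Mkx* and *Acan*, which had the fewest UMIs of the members. They also limit differences in Dpp4-type cells, where each member had fewer UMIs than in other cells.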
